A study of Mus musculus with 28 samples.

Results

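The Hox genes of the 4 mouse clusters were followed through sorted germ cells and gonadal soma of the mouse embryo at E13.5 (embryonic day). Members were all rows of the RNA table and of the promoter table whose gene name is Hoxa, Hoxb, Hoxc or Hoxd followed only by digits. The rule gave 40 of 22138 rows in each table and 39 gene names, with 11 names in Hoxa, 10 in Hoxb, 9 in Hoxc and 9 in Hoxd. Hoxa3 has 2 rows, under the Ensembl identifiers ENSMUSG00000059723 and ENSMUSG00000079560, whose promoter values are nearly identical. Fluorescence-activated sorting had divided each gonad into primordial germ cells (PGCs, the embryonic precursors of sperm and eggs, SSEA1+) and soma (SSEA1-).

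The germ cells came from a cross carrying deleted alleles of Setdb1, the gene of an enzyme that methylates histone H3 at lysine 9. RNA was sequenced for 4 genotypes in both sexes: wild type (flox/+, 1 library per sex), Het1 (delta/+, 2 per sex), Het2 (flox/-, 2 per sex) and KO (delta/-, 2 per sex). Het1 and Het2 each keep 1 working copy and are joined below as Het (n = 4 per sex), so Het and KO libraries share the loss of the other copy. The remaining RNA libraries are 1 of PGCs and 1 of soma from C57BL/6 males. Promoter H3K27me3 and H3K9me3 were measured in 1 library each of Het (flox/-) and KO PGCs per sex. H3K9me3 was also measured in 1 library of C57BL/6 male soma, whose title says WT. The labels name no strain for the cross. The labels name neither the source of the Cre recombinase nor the number of embryos behind a library, so p-values measure the spread between libraries, which may be technical.

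Hox genes encode homeodomain transcription factors that give cells their position along the head to tail axis of the embryo. Within a cluster the genes at the 3′ end, with low numbers, are used early and anteriorly, and those at the 5′ end, with high numbers, late and posteriorly. Retinoic acid and Cdx factors switch them on, Pbx and Meis proteins bind DNA with their products, and Polycomb complexes hold silent Hox genes under H3K27me3. In mouse PGCs the repression of Hox genes, which needs Prdm1, is a classical feature of the break with the somatic programme.

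The sorted fractions carried the markers of their labels. The 11 germ cell markers measured summed to between 1152 and 2578 RPKM (reads per kilobase of gene, set relative to the size of the library) in the 15 PGC libraries and to 21.9 in soma. The 2 lowest of the 15 were the female KO libraries (1152 and 1510, against 1609 to 1964 in female Het). The 13 stromal markers measured summed to between 18.1 and 73.2 in PGCs and to 2157 in soma. Setdb1 itself stood at 27.1 and 31.2 RPKM in male KO against 37.5 to 52.1 in male Het, and at 31.3 and 34.7 in female KO against 38.2 to 58.9 in female Het, with 55.4 and 45.3 in male and female wild type. KO and Het did not overlap in either sex, but limma did not call Setdb1 (KO minus Het -0.54 on the log2 scale, SE 0.13, adjusted p = 0.0783 averaged over the sexes, 0.322 in males and 0.337 in females). Female wild type lay within female Het, and the deposited gene value does not show which exons the reads came from. Male Het1 replicate 1 and the C57BL/6 PGC library stood apart from the other PGC libraries in the Hox genes themselves, as given below, and female Het2 replicate 1 in blood markers (262.9 RPKM summed, against at most 50.9 in the other PGC libraries). The male differences of Hoxb3, Hoxb6, Hoxb7, Hoxb8, Hoxc4, Hoxc5 and Hoxa5, and the Hox calls in females, are given with and without the first.

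Promoter windows of 300 bases, from 250 before to 50 after the annotated start, were found in RefSeq (build GRCm38.p6) for 22 of the 39 genes, as 24 windows. The number of CG dinucleotides, in which promoters under Polycomb control are typically rich, ranged from 4 to 45 with a median of 14.5, against a median of 7 in all 32851 windows, and 11 of the 24 reached the upper quartile of all windows (20). Windows of 4 genes are printed 5′ to 3′ along the gene's strand with each CG in capitals, because these genes lie at or near the extremes of the results. Hoxb8 (chr11:96281655-96281954, + strand, 13 CG) had the highest mean RNA over the Het and KO PGC libraries. Hoxc4 (chr15:103034145-103034444, + strand, 9 CG) had the largest KO minus Het difference averaged over the sexes. Hoxa13 (chr6:52260831-52261130, - strand, 45 CG) had the lowest such difference, and Hoxd12 (chr2:74674763-74675062, + strand, 13 CG) was nearly without RNA under high H3K27me3.
Hoxb8: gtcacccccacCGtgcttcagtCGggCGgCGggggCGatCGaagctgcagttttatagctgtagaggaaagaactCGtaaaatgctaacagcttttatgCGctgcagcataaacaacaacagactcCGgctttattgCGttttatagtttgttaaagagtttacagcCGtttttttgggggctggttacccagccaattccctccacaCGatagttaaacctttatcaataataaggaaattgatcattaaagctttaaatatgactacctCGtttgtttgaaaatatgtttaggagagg
Hoxc4: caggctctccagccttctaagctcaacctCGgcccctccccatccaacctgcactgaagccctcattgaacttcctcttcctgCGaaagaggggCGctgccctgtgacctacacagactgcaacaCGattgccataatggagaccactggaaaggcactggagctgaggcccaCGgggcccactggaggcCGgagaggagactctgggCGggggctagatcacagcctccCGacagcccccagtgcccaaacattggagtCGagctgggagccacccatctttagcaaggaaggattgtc
Hoxa13: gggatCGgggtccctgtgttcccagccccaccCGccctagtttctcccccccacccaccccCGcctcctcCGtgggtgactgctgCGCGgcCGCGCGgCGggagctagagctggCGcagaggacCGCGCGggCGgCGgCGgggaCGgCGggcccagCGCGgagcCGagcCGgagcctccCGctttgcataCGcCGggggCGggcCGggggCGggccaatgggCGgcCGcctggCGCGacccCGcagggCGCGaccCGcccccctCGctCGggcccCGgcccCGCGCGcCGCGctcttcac
Hoxd12: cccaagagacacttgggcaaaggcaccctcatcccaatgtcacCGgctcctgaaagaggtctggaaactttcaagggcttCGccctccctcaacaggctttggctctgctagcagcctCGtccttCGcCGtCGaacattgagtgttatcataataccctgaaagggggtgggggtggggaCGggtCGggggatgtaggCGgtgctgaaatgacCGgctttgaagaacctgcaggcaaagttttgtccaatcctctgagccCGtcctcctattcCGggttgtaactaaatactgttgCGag
The capitals crowd in Hoxa13 and are fewer in the other 3 windows, fewest in Hoxc4, though each of these lies above the median of 7 in all windows. G and C made up 81.0% of the window in Hoxa13, 60.3% in Hoxc4, 55.0% in Hoxd12 and 42.3% in Hoxb8. The letters TATAAA, searched on both strands, were present in the windows of Hoxa10, Hoxb8, Hoxd4 and Hoxd13 and in 13.6% of all windows. The letters TGATNNAT, a core that Hox and Pbx proteins bind together, searched on both strands, were present in Hoxa2, Hoxb1, Hoxb8 and Hoxd11 and in 8.85% of all windows. These windows belong to another build than the mm9 promoters of the ChIP table, so the marks below are matched by gene name only.

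In male soma 28 of the 40 rows reached RPKM 1, and in C57BL/6 male PGCs only 3 did. Of the 29 rows at RPKM 1 or more in either library, 26 were at least 2-fold higher in soma on the log2(RPKM + 1) scale and 0 were 2-fold higher in PGCs, where 28.7% and 17.6% of all 13457 such genes were. The median log2 difference was 2.72 for these Hox rows and 0.14 for all such genes. With 1 library each this comparison has no test.

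**Figure D1:**
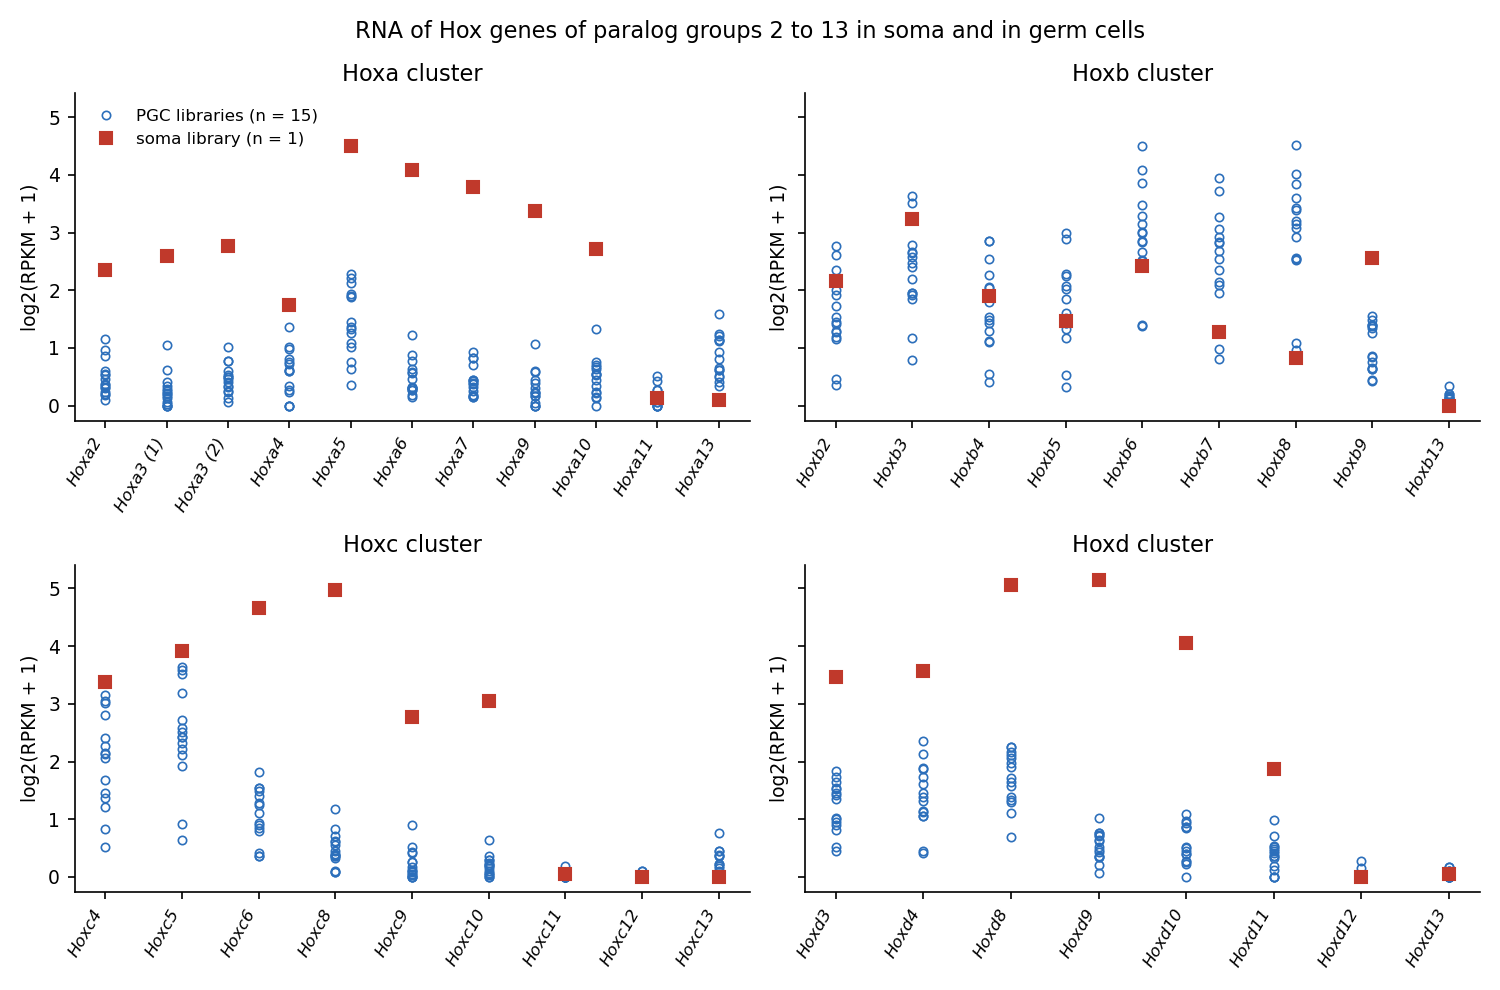
RNA level of the Hox rows of paralog groups 2 to 13 as log2(RPKM + 1), in 4 panels for the clusters with genes ordered from 3′ to 5′; red squares are the soma library, blue circles the 15 PGC libraries, and Hoxa3 (1) and (2) are its 2 Ensembl rows in the order named in the text. Soma lies above every PGC library across most of Hoxa, Hoxc and Hoxd, and within or below the PGC values from Hoxb2 to Hoxb8.

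Soma carried the middle of the clusters. Its highest member was Hoxd9 at 34.5 RPKM, a gene of the 5′ part of Hoxd known from limb and genital development, which lay between 0.05 and 1.04 in the 15 PGC libraries. Hoxd8 stood at 32.3 in soma and between 0.61 and 3.79 in PGCs, and Hoxc8, a gene of the thoracic trunk, at 30.2 in soma and between 0.06 and 1.25 in PGCs. By paralog group, 6 of 9 rows of groups 1 to 3 reached RPKM 1 in soma (median 4.07), 14 of 15 rows of groups 4 to 8 (median 10.9) and 8 of 16 rows of groups 9 to 13 (median 1.38). The 4 genes Hoxc11, Hoxc12, Hoxd12 and Hoxd13, at the 5′ side of their clusters, never passed 0.21 RPKM in any of the 16 RNA libraries, whereas Hoxa13 reached 2.0 in PGCs.

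The sorted PGC and soma libraries differed in which cluster gave the most RNA. The summed RPKM of Hoxb was 0.33 times that of Hoxa in soma, and between 2.33 and 9.14 times that of Hoxa in the 15 PGC libraries, with no overlap. By the mean of the 12 Het and KO libraries the leading member was Hoxb8, a posterior trunk gene, at 8.49 RPKM. It reached at most 21.9 in PGCs against 0.77 in soma. Hoxb6 was close, with a mean of 8.11, and was the higher of these in some libraries, such as female KO replicate 1 (21.7 against 15.3). Hoxb7 reached 14.4 against 1.41 in soma, Hoxb6 reached 21.7 against 4.34, and Hoxb3 reached 11.4 against 8.40. These highest values, like that of Hoxb8, were all in female KO libraries. In the C57BL/6 male PGC library Hoxb7, Hoxb6 and Hoxb3 lay below soma, at 0.98, 1.62 and 1.25 RPKM, and Hoxb8 was at 1.13. In the 15 PGC libraries 14 of 15 rows of paralog groups 4 to 8 reached RPKM 1 at least once, against 6 of 16 rows of groups 9 to 13, whose highest PGC value was 2.0. Hoxb1, a 3′ gene of the hindbrain, was listed at 0 in soma and never passed 0.14 in PGCs.

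The PGC libraries were far from alike in Hox RNA. The summed RPKM of all Hox rows ran from 12.6 in C57BL/6 PGCs and 13.46 in male Het1 replicate 1 to 123 and 129 in the female KO libraries, and to 308 in soma. The summed RPKM of the 7 genes from Hoxb2 to Hoxb8 was 5.04, 38.0, 19.6 and 31.1 in male Het, 21.0 and 31.3 in male KO, 44.6 in male wild type and 6.12 in C57BL/6 PGCs. In females it was 34.2, 26.98, 27.7 and 22.0 in Het, 77.4 and 82.7 in KO and 53.1 in wild type. The 2 male libraries near 5 and 6 were the lowest of the 8 male PGC libraries in each of the 7 genes, and the 3 highest of the 7 female libraries were wild type and both KO in each of the 7.

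Most, but not all, listed markers of the mesonephros, the embryonic kidney whose ducts and tubules lie against the gonad, moved with these genes. All 8 listed markers were above 0 in each of the 15 PGC libraries, and their summed RPKM ranged from 34.6 to 123 in male Het, from 71.7 to 115 in male KO, from 65.5 to 85.1 in female Het and from 138 to 156 in female KO, against 24.5 in soma. Pax8, a transcription factor of renal and duct epithelium that was singled out after its values were seen, ranged from 1.75 to 31.6 RPKM over the PGC libraries. Over the same libraries the ratio of the Hoxb2 to Hoxb8 sum to Pax8 lay between 2.05 and 3.25, although the Hoxb sum itself ranged 16.4-fold and Pax8 18.1-fold. In soma the ratio was 16.5. Male Het1 replicate 1 was the lowest of the 7 male libraries of the cross in 7 of 7 Hoxb genes and in 7 of 8 mesonephros markers. Both female KO libraries lay above every female Het library in 7 of 7 Hoxb genes and in 6 of 8 markers. The markers that overlapped were Gata3 and Wnt9b. Lhx1 made up most of the marker sum where the Hoxb sum was lowest. It gave 25.8 of 34.6 RPKM in male Het1 replicate 1 and 49.1 of 61.1 in C57BL/6 PGCs. Between the sexes Lhx1 was lower in female than in male Het by 1.22 on the log2 scale (limma adjusted p = 0.0054). The part of mesonephric RNA in the Hox values was not tested, and in bulk samples fewer cells of a type and less RNA per cell cannot be told apart.

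**Figure D2:**
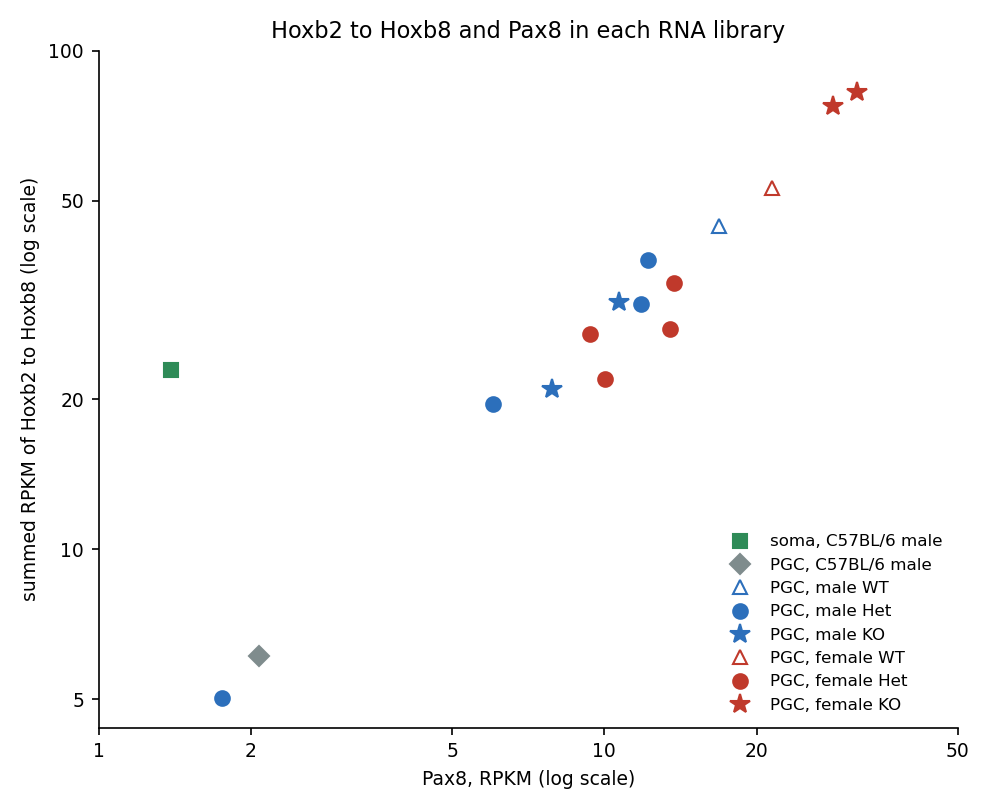
Summed RPKM of Hoxb2 to Hoxb8 (vertical, log scale) against the RPKM of Pax8 (horizontal, log scale), 1 symbol per RNA library, shaped by genotype and coloured by sex or source. The 15 PGC libraries form a band with a ratio between 2.05 and 3.25, and the soma library lies off it at 16.5.

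The comparison of KO with Het PGCs asks how Hox RNA differs once Setdb1 is lost. Of the 40 rows, 18 passed the filter of RPKM 1 in at least 2 of the 12 Het and KO libraries: Hoxa4, Hoxa5, Hoxa13, Hoxb2 to Hoxb9, Hoxc4, Hoxc5, Hoxc6, Hoxd1, Hoxd3, Hoxd4 and Hoxd8. The other 22 rows were too low to be tested. None of the 18 passed an adjusted p of 0.05 by limma in males (0 of 18, with 0.614% of all 13518 genes called), in females (0 of 18, 0.407% called) or over both sexes (0 of 18, 1.04% called). At an unadjusted p under 0.05 there were 2 of 18 in males (4.55% of all genes), 13 of 18 in females (12.4%) and 13 of 18 over both sexes (12.6%). The median log2 difference of the 18 was 0.29 in males, 1.01 in females and 0.67 over both sexes, beside 0.027, 0.072 and 0.050 for all genes tested. In females 16 of 18 differences were above 0, as were 60.1% of all genes, and centring each library on its median moved the all-gene median by -0.14 and left 14 of 18 above 0 with a Hox median of 0.87.

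Hoxc4, an anterior trunk gene, had the largest difference over both sexes. In females it was at 3.41, 3.15, 1.74 and 2.22 RPKM in Het, at 7.27 and 7.07 in KO and at 7.90 in wild type. In males it was at 0.77, 3.81, 1.31 and 1.59 in Het, at 3.40 and 4.30 in KO and at 6.02 in wild type. Both female KO libraries lay above all female Het libraries, the male groups overlapped, and in both sexes wild type lay above KO. Averaged over the sexes, KO exceeded Het by 1.03 on the log2 scale (SE 0.24, limma adjusted p = 0.0680), 0.85 in males and 1.196 in females. It passed the threshold under 3 alternatives that the closing section lists.

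Hoxa5, a gene of lung and gut mesenchyme, was the member whose KO libraries were separate from Het in both sexes with little spread. Males had 0.55, 1.57, 1.02 and 1.5 RPKM in Het against 2.69 and 2.73 in KO, with 1.73 in wild type. Females had 2.82, 1.38, 0.68 and 1.13 in Het against 3.84 and 3.35 in KO, with 3.66 in wild type. Male KO lay above wild type, and female wild type lay between the KO libraries. Averaged over the sexes, Hoxa5 differed by 0.88 on the log2 scale (SE 0.21, limma adjusted p = 0.0856), and without female Het1 replicate 1 by 0.99 (limma adjusted p = 0.0210). Hoxc5 was the other gene separated upwards in both sexes, which 3.06% of all genes tested were, with 4.67 and 5.58 in male KO against 0.56 to 4.39 in Het and 5.01 in wild type. In females Hoxc5 stood at 10.95 and 10.4 in KO, 8.09, 4.02, 3.63 and 3.34 in Het and 11.4 in wild type, and the average log2 difference was 0.92 (SE 0.31, limma adjusted p = 0.211).

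**Figure D3:**
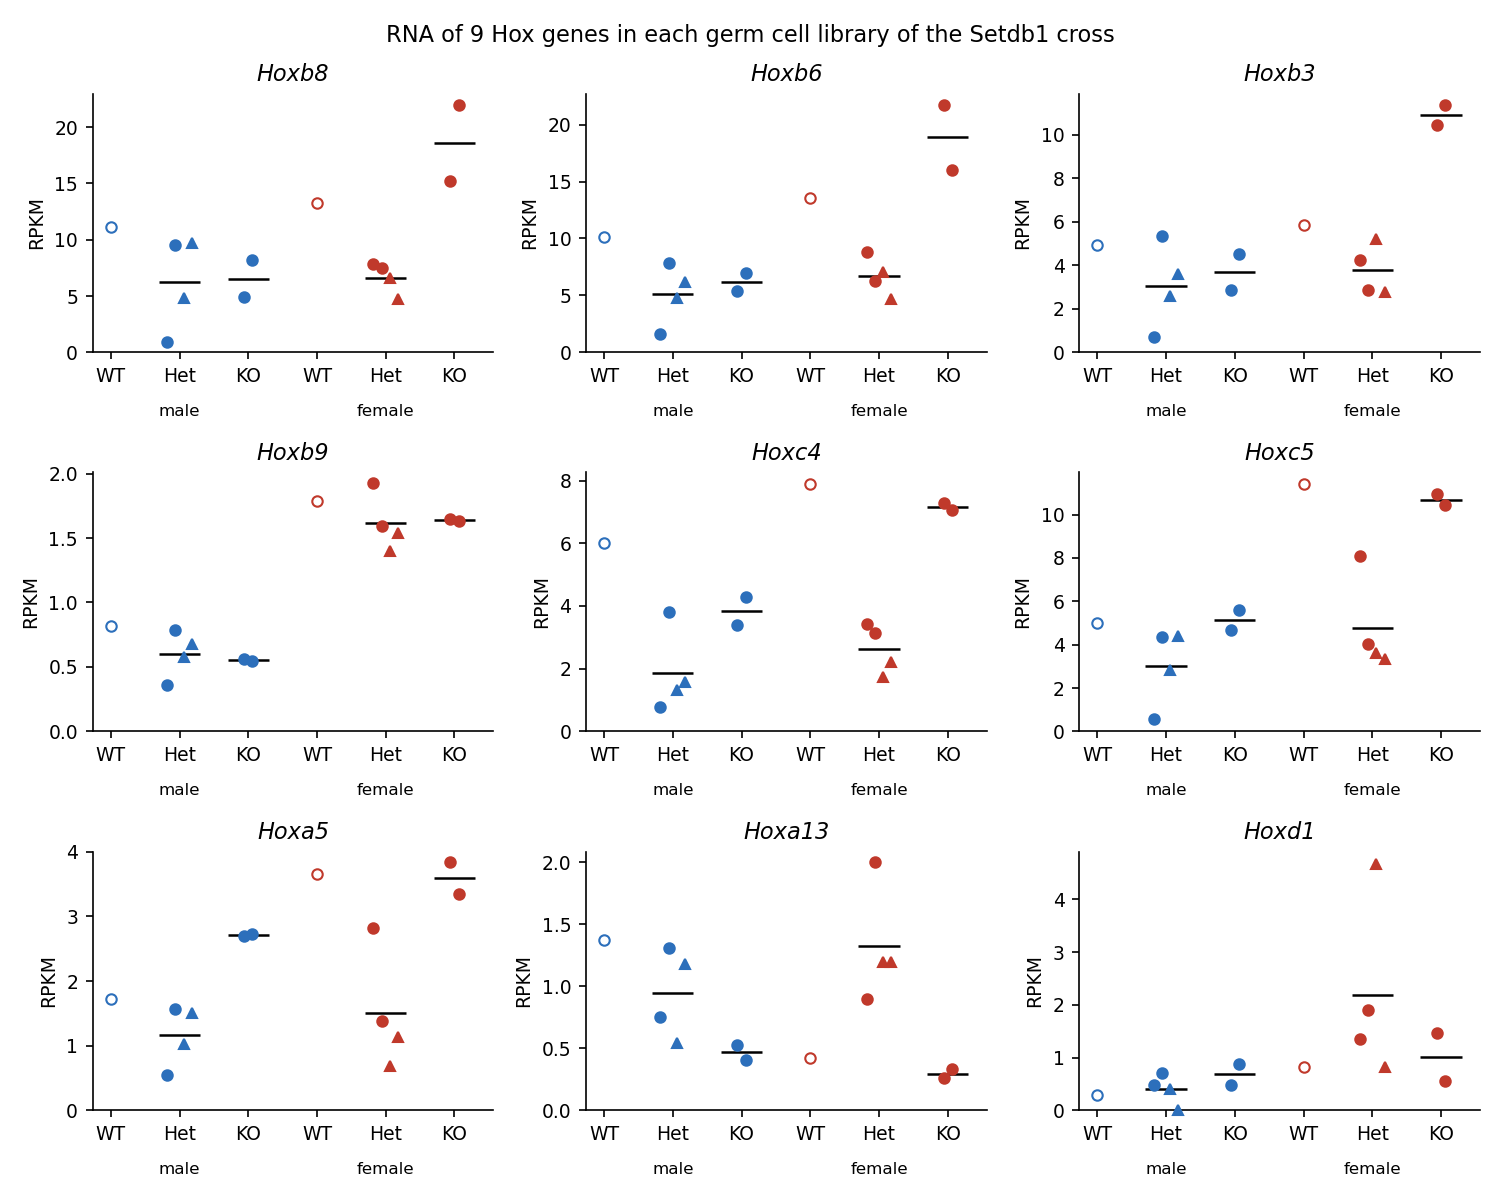
RPKM of 9 Hox genes in each PGC library of the cross, males in blue and females in red; open circles are wild type, filled circles Het1 and KO, triangles Het2, and horizontal lines group means. Female KO lies above female Het for Hoxb8, Hoxb6, Hoxb3, Hoxc4, Hoxc5 and Hoxa5, KO lies below Het for Hoxa13, and Hoxb9 parts the sexes.

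The genes from Hoxb2 to Hoxb8 were high in female KO as a block. Some somatic marker sums were high in the same libraries. Besides mesonephros, the summed RPKM of pregranulosa markers was 55.2 and 50.8 in female KO against 24.8 to 37.0 in female Het. The largest pregranulosa member in both KO libraries was Runx1 (20.7 and 22.3, against 9.65 to 12.3 in female Het). Lgr5, Fst and Cdkn1b also lay above female Het. Bmp2, Irx3, Rspo1, Wnt4 and Foxl2 overlapped, with Foxl2 at 0.32 and 0.13 against 0.22 to 0.67. The summed RPKM of Sertoli markers was 58.4 and 41.1 against 23.6 to 31.4. The largest Sertoli member in both KO libraries was Fgf9 (23.3 and 18.5, against 7.81 to 8.79 in female Het and 3.83 in soma). Amh, Dhh, Cst9 and Cst8 stayed at or under 0.91 in both female KO libraries. The other 4 of 7 somatic lists overlapped, the germ cell sum was below every female Het library, and the part of any of these in the Hox values was not tested. Hoxb8 stood at 7.82, 7.45, 6.58 and 4.72 RPKM in female Het, at 15.3 and 21.9 in KO and at 13.3 in wild type. In males it stood at 0.96, 9.51, 4.82 and 9.73 in Het, at 4.89 and 8.19 in KO and at 11.2 in wild type. Hoxb6 stood at 8.79, 6.26, 7.08 and 4.69 in female Het, at 21.7 and 16.0 in KO and at 13.6 in wild type, and in males at 1.59, 7.88, 4.75 and 6.18 in Het, at 5.36 and 6.96 in KO and at 10.1 in wild type. Neither male comparison separated the groups, whereas both female KO libraries exceeded wild type as well as Het.

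Hoxb7 had the largest female difference, 1.39 on the log2 scale (SE 0.47, adjusted p = 0.255 by limma), with 6.59, 4.13, 4.81 and 2.86 RPKM in Het, 12.2 and 14.4 in KO and 8.67 in wild type. Its male values were 0.76, 6.08, 3.26 and 6.18 in Het, 3.44 and 5.42 in KO and 7.31 in wild type. Hoxb3 stood at 4.26, 2.86, 5.23 and 2.77 in female Het, at 10.5 and 11.4 in KO and at 5.85 in wild type. In males Hoxb3 stood at 0.73, 5.36, 2.59 and 3.59 in Het, at 2.88 and 4.52 in KO and at 4.93 in wild type. Hoxb2, the member with the smallest adjusted p in females, had a log2 difference of 1.27 there (SE 0.34, adjusted p = 0.155 by limma) and of 0.11 in males.

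Counting separation alone, both female KO libraries lay above all 4 female Het libraries for 12 of the 18 genes, where 14.8% of all genes tested did so, and for 8 of these (Hoxb2 to Hoxb8 and Hoxd4) also above female wild type, where 12.5% did. In males the count was 3 of 18 (Hoxa4, Hoxa5 and Hoxc5), where 9.01% of all genes did so. These 3 were higher in soma, at 2.36, 21.5 and 14.1 RPKM. Leydig cell markers moved with male KO: their summed RPKM was 85.4 and 47.3 in male KO against 15.7 to 21.9 in male Het. Of 7 tested, 5 were called higher by limma, where 0.614% of all genes were called. Among them was Cyp17a1, a steroid synthesis enzyme, higher by 3.23. Pregranulosa markers were the other of 7 somatic marker lists whose sum lay above all male Het libraries, by a narrow margin (32.1 and 32.9 against 23.3 to 31.7). A large part of that sum was Cdkn1b, which overlapped (11.8 and 9.09 against 5.93 to 15.4). Foxl2 of the same list was at 0.07 and 0 in male KO against 0.05 to 0.13 in male Het. None of the 8 Leydig markers was at 0 in every PGC library, and the part of Leydig or pregranulosa RNA in the Hox values was not tested. The 12 female genes are not 12 separate observations, since they rest on the same 6 libraries. In the RefSeq annotation the RNA model of Hoxa3 overlaps those of Hoxa4, Hoxa5 and Hoxa6, that of Hoxb3 overlaps Hoxb4 and that of Hoxd3 overlaps Hoxd4, and the library preparation given in the labels does not mark strand, so reads from shared stretches or antisense transcripts cannot be told apart.

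The difference between the sexes in the KO effect was itself tested. None of the 18 genes passed (0.0518% of all genes were called, and 2 of 18 had an unadjusted p under 0.05 beside 3.65% of all genes). For Hoxb2 the KO effect was larger in females by 1.16 on the log2 scale (95% interval 0.12 to 2.20), and for Hoxb4 by 1.16 (0.08 to 2.24), each with an adjusted p of 0.9998 by limma. Male Het1 replicate 1 bears on this comparison. Without it the male differences of Hoxb8, Hoxb7, Hoxb6 and Hoxb3 became -0.24, -0.17, -0.0085 and -0.027, from 0.30, 0.27, 0.36 and 0.33. Those of Hoxc4, Hoxc5 and Hoxa5 became 0.66, 0.35 and 0.66, from 0.85, 0.76 and 0.81. In the same fit 3 genes passed in females, Hoxb6, Hoxb3 and Hoxb2, with the female differences themselves as before.

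**Figure D4:**
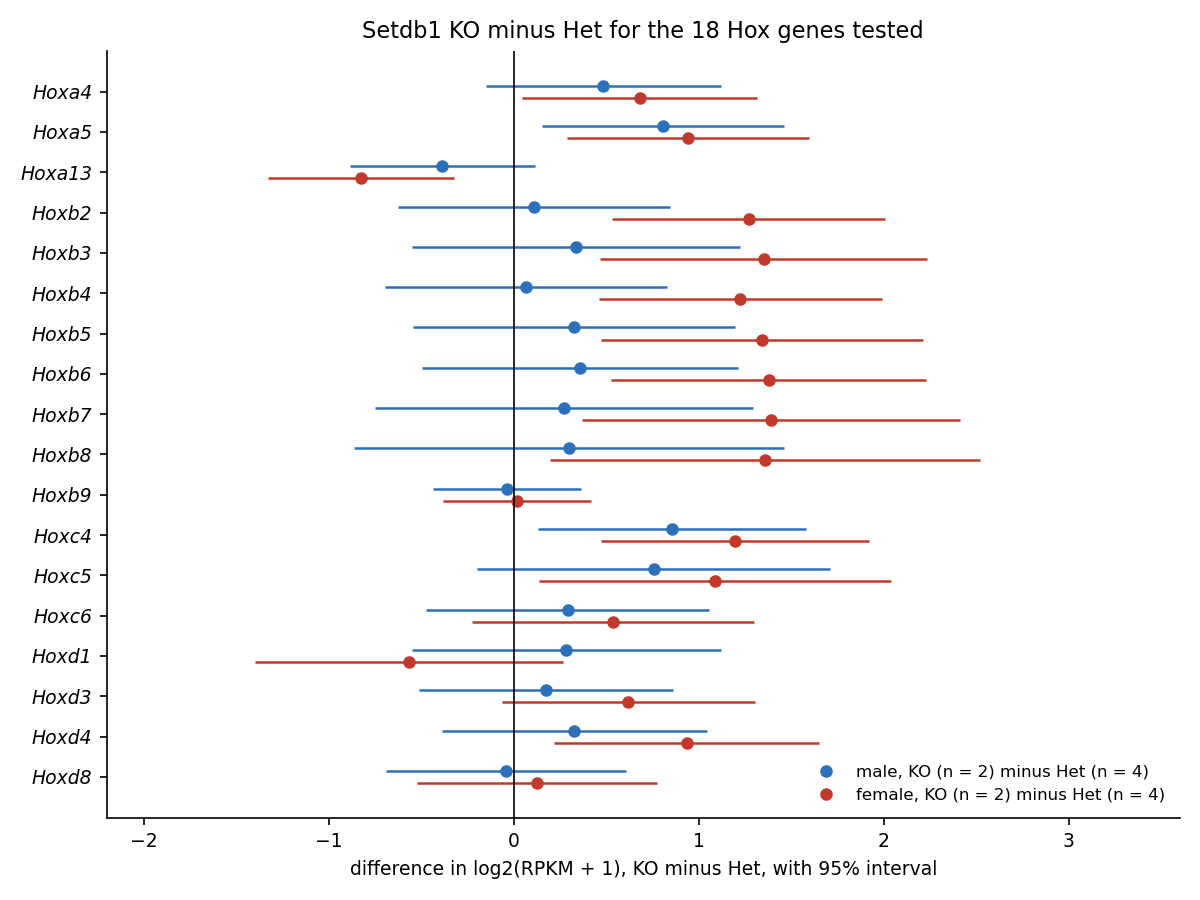
Difference in log2(RPKM + 1) between KO (n = 2) and Het (n = 4) for the 18 Hox genes tested, males in blue and females in red, with 95% intervals from limma. In females the intervals of Hoxb2 to Hoxb8 lie above 0, while every male Hoxb interval includes 0.

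Hoxa13, the 5′-most gene of its cluster and a determinant of digits and the genital tubercle, went the other way. It stood at 0.75, 1.31, 0.54 and 1.18 RPKM in male Het, at 0.53 and 0.41 in KO and at 1.37 in wild type. Females had 0.90, 2.0, 1.2 and 1.2 in Het, 0.26 and 0.33 in KO and 0.42 in wild type. It passed the RPKM filter through 5 Het libraries alone, so it was tested only because Het was high, and its place below Het is given as a description. It was the only tested Hox gene whose KO libraries lay below all Het libraries in both sexes, where 0.466% of all genes did so (4.13% in males and 5.62% in females), and its female wild type lay near KO. Averaged over the sexes, the log2 difference came to -0.61 (SE 0.16, limma adjusted p = 0.122; 0.0772 with no filter). Soma had 0.07 RPKM, below every PGC library.

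The sexes were compared in Het PGCs, and 2 of the 18 genes passed, both higher in females, where 31.9% of all genes tested passed. Both had passed the RPKM filter through female libraries alone (6 of 12 libraries for Hoxb9 and 4 of 12 for Hoxd1), so the filter itself favoured a difference. With no filter the limma adjusted p was 0.0025 for Hoxb9 and 0.0373 for Hoxd1. The same 2 had an unadjusted p under 0.05, as did 42.8% of all genes. Hoxb9, the gene next to the Hoxb2 to Hoxb8 block on its 5′ side, was at 1.93, 1.59, 1.40 and 1.54 RPKM in female Het and at 0.36, 0.79, 0.58 and 0.68 in male Het, with no overlap. The KO libraries kept that order, with 1.65 and 1.63 in females and 0.56 and 0.55 in males, and wild type too, with 1.79 and 0.82. Its log2 difference was 0.71 (SE 0.15, adjusted p = 0.0040 by limma), and its KO minus Het difference over both sexes was -0.0092 (95% interval -0.29 to 0.27). Hoxd1, a 3′ gene that retinoic acid induces, was at 1.36, 1.90, 4.67 and 0.82 in female Het and at 0.49, 0.70, 0.41 and 0 in male Het. The highest of these is female Het2 replicate 1, the library with high blood markers. Hoxd1 differed by 1.08 on the log2 scale (SE 0.31, adjusted p = 0.0208 by limma) and did not pass without male Het2 replicate 2 (adjusted p = 0.0576 by limma). Its KO libraries overlapped between the sexes, with 1.46 and 0.56 in females and 0.49 and 0.88 in males. Soma had 0.11 RPKM of Hoxd1 and 4.86 of Hoxb9.

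Against these small sex differences stood large ones in genes known to drive Hox clusters. Cdx2, a homeodomain activator of middle Hox genes in the trunk, was at 32.6, 31.4, 26.7 and 27.9 RPKM in female Het, with at most 0.24 in any male library and 0 in soma. It was 4.75 higher in female than in male Het on the log2 scale (SE 0.14, adjusted p = 4.5e-10 by limma), while Hoxb8 differed by 0.33 (95% interval -0.62 to 1.28) and Hoxc4 by 0.42 (-0.18 to 1.01). In female KO Cdx2 was at 20.1 and 21.0, a log2 difference from Het of -0.51 (adjusted p = 0.264 by limma). A list of Hox activators also held other genes, such as Gbx2 and Cyp26b1, so its figures are not those of activators alone. Of its 18 tested genes, 7 were higher and 3 lower in female Het (31.9% of all genes were called). Among them were Rarb, a retinoic acid receptor, higher by 1.56, and Aldh1a2, the enzyme that makes retinoic acid, lower by 1.07. The Aldh1a2 call was lost without female Het1 replicate 2 (limma adjusted p = 0.0501). Of these 18 tested genes, 0 passed between KO and Het in either sex or over both by limma. At an unadjusted p under 0.05 there were 1, 3 and 2 in males, in females and over both sexes, beside 4.55%, 12.4% and 12.6% of all genes.

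Partners and repressors of Hox proteins were read from 3 further lists. Of 8 tested cofactors (the Pbx, Meis and Pknox families), 3 were higher in female than in male Het (where 31.9% of all genes were called) and 0 passed between KO and Het, where the closest was Meis1 at 1.09 over both sexes (SE 0.30, adjusted p = 0.132 by limma). Meis1 stood at 65.2 RPKM in soma and at 3.02 to 37.5 in PGCs, with the lowest value again in male Het1 replicate 1 and the highest in female KO. Of 11 genes of Polycomb complex 2, which writes H3K27me3, 1 passed between KO and Het over both sexes, where 1.04% of all genes were called. It was Phf19, an accessory subunit, lower by 0.53 on the log2 scale (SE 0.11, adjusted p = 0.0386 by limma). The Phf19 call was lost without any 1 of 9 of the 12 libraries, with limma adjusted p from 0.0506 to 0.251 (all but male Het1 replicate 2, male KO replicate 1 and female Het2 replicate 1). Between the sexes Phf19 was 2.57 higher in female than in male Het on the log2 scale (adjusted p = 5.6e-08 by limma). Of these 11 genes it was the only one called higher, and Mtf2 (-0.61) and Eed (-0.46) were called lower, where 31.9% of all genes were called. Of 19 genes of Polycomb complex 1, 0 passed between KO and Het by limma. At an unadjusted p under 0.05 there were 0, 1 and 1 in males, in females and over both sexes, beside 4.55%, 12.4% and 12.6% of all genes. In female Het 8 of the 19 were called higher than in male Het and 1 lower. Another list mixed genes near the clusters with other homeobox genes, such as En2, so its figures are not those of neighbours alone. Its 9 tested genes also had 0 calls between KO and Het, with 0, 1 and 1 at an unadjusted p under 0.05 (4.55%, 12.4% and 12.6% of all genes). Their median log2 difference was -0.26 in females, where the Hox median was 1.01. Between the sexes 5 of the 9 were higher and 1 lower in female Het, where 31.9% of all genes were called. The higher ones were Dlx3 (3.74), Dlx4 (1.05), Ttll6 (1.16), En2 (1.52) and Skap2 (0.47). Evx1, the homeobox gene at the 5′ end of Hoxa, was 0.77 lower in female than in male Het (SE 0.22, adjusted p = 0.0196 by limma), a call lost without male Het1 replicate 2 (0.0581) or female Het1 replicate 2 (0.0548).

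The Hox promoters of PGCs carried high H3K27me3 in every library. Within 1 kb of the start, the median of the 40 rows was 1.84 RPKM in male Het, 1.70 in male KO, 1.45 in female Het and 1.15 in female KO, beside 0.254, 0.249, 0.296 and 0.269 for all promoters. The Hox median thus stood at the 98.5th, 97.6th, 98.1st and 97.2nd percentile of all promoters, and 38 of the 40 rows exceeded the 90th percentile in each library. By the mean of the 4 libraries the highest member was Hoxc9, with 2.73, 2.76, 2.03 and 1.70 RPKM in male Het, male KO, female Het and female KO. Hoxd12 had 2.36, 2.65, 2.08 and 1.79 and Hoxb13 had 2.35, 2.44, 1.96 and 1.77 in the same order. Hoxc9 led in both male libraries, Hoxd12 in female Het and Hoxd11 in female KO (1.92). Hoxc9, Hoxd12 and Hoxb13 stood at or under 0.86 RPKM of RNA in every PGC library.

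**Figure D5:**
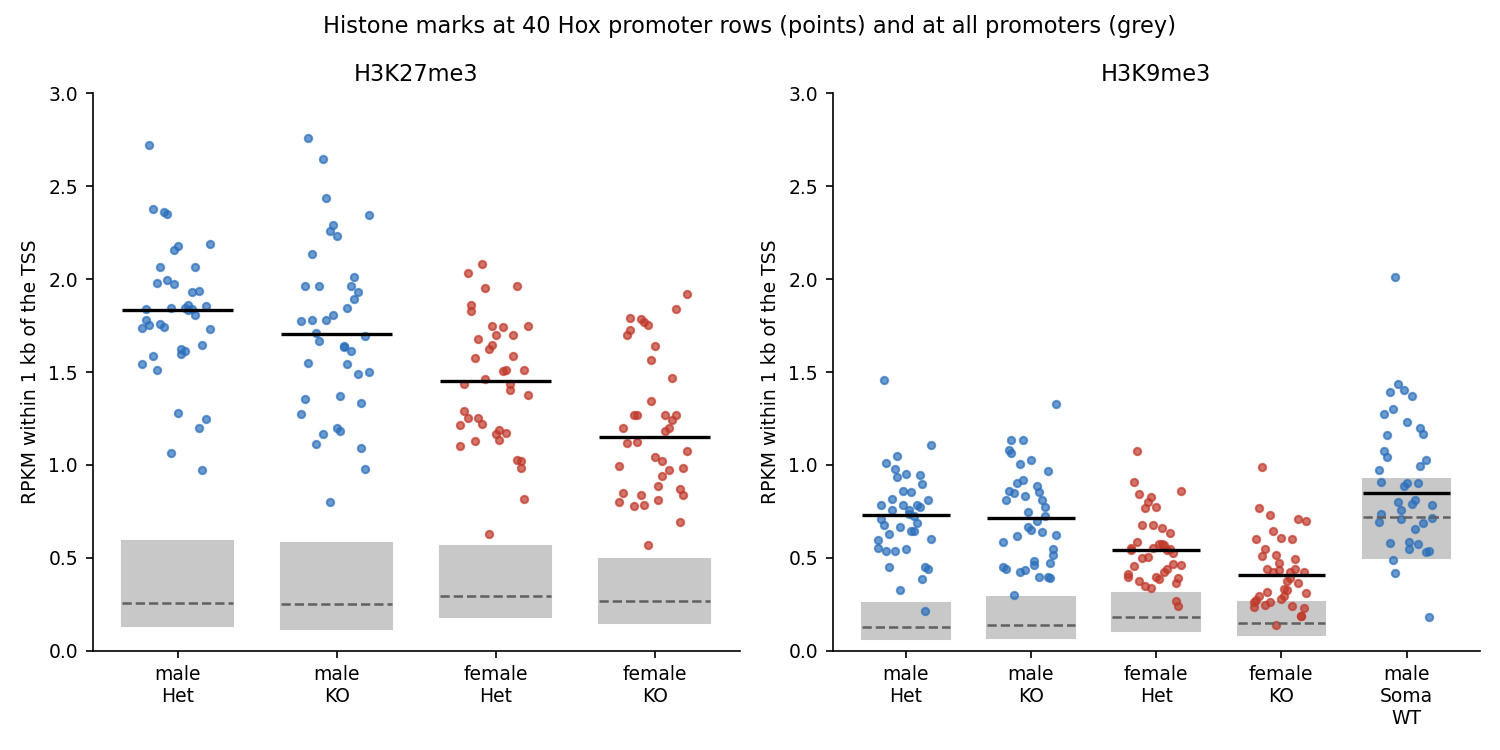
RPKM of H3K27me3 (left) and H3K9me3 (right) within 1 kb of the transcription start (TSS) at the 40 Hox rows, 1 point per row and 1 column per ChIP library; black lines are Hox medians, grey boxes the range between the quartiles of all promoters and dashed lines their medians. For H3K27me3 the Hox points lie nearly all above the box in each PGC library, and for H3K9me3 they overlap the box only in soma and in the lowest rows.

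The lowest mean H3K27me3 was at Hoxa4 (1.07, 0.802, 0.629 and 0.569 RPKM in that order), Hoxa13 (0.971, 1.09, 1.02 and 0.692) and Hoxd8 (1.25, 0.977, 0.816 and 0.838), genes that passed the RNA filter. The 18 genes that passed it had a median of 1.22 in female Het and the 22 that did not 1.66, and in male Het 1.74 and 1.95, with ranges that overlapped. Across the 40 rows RNA and H3K27me3 were related by r = -0.22 (Pearson) and rho = -0.38 (Spearman) in male Het, and by r = -0.45 and rho = -0.54 in female Het. These describe rows that share 1 ChIP library per sex and neighbour each other on 4 chromosomes. Hoxb8, with the highest mean RNA over the Het and KO PGC libraries, had 1.86, 1.54, 1.17 and 1.27 RPKM of H3K27me3. The Hox medians were 1.84, 1.70, 1.45 and 1.15. RNA and mark come from separate libraries, and which cells the RNA came from was not tested.

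Between KO and Het, no Hox promoter differed 2-fold in H3K27me3 in the same direction in both sexes (0 of 37 at RPKM 1 or more, where 0.0556% of 1800 promoters were lower and 0% higher). limma over the 4 libraries called 0 of 37, and 0 of all 1800, with 5 of 37 at an unadjusted p under 0.05 (7.56% of all): Hoxa2, Hoxb5, Hoxb7, Hoxc5 and Hoxd4, all lower in KO. At 20 of the 37 the KO library was below Het in both sexes, as at 42.9% of the 1800. Over the 40 rows the median log2 ratio of KO to Het was -0.081 in males and -0.24 in females, and over all 22138 promoters -0.050 and -0.15. Hoxb7, with 1.75 and 1.17 RPKM in male Het and KO and 1.22 and 0.840 in female Het and KO, had the lowest log2 ratio over both sexes, -0.52 (SE 0.21, adjusted p = 0.492 by limma).

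Between the sexes, no Hox promoter differed 2-fold in both genotypes (0 of 38, where 0.134% of 2237 promoters were higher and 0.0894% lower in females), yet 37 of 40 rows were lower in females in both genotypes. Of the 38 above the minimum 35 were, as were 86.4% of all promoters above it. limma called 7 of 38, all lower in females, where 20.8% of all 2237 were called and 19.9% were called lower; 22 of 38 had an unadjusted p under 0.05, beside 47.5% of all. The 7 were Hoxb9 (log2 ratio -0.77), Hoxa2 (-0.76), Hoxd1 (-0.63), Hoxc4 (-0.56), Hoxc9 (-0.54), Hoxc5 (-0.52) and Hoxa5 (-0.51). The median log2 ratio was -0.42 for the Hox promoters tested and -0.39 for all promoters tested. Centring each library on its median gave 33 Hox calls, with 82.1% of all 2237 called, and quantile normalisation gave 2, with 4.34% called. Hoxb9 and Hoxd1, the genes with more RNA in female Het, had 1.21 and 0.982 RPKM of H3K27me3 in female Het against 1.74 and 1.65 in male Het.

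H3K9me3, the mark that Setdb1 writes, was also above the all-promoter level at Hox promoters of PGCs. Its median was 0.730 RPKM in male Het, 0.713 in male KO, 0.542 in female Het and 0.407 in female KO, beside 0.127, 0.136, 0.179 and 0.149 for all promoters. The highest members by the mean of the 4 libraries were Hoxc9 (1.46, 1.08, 0.907 and 0.769 in that order), Hoxc12 (1.01, 1.14, 1.07 and 0.989) and Hoxd11 (1.11, 1.33, 0.858 and 0.698). The lowest by that mean were Hoxa13 (0.211, 0.393, 0.265 and 0.187), Hoxa4 (0.325, 0.433, 0.338 and 0.139) and Hoxd3 (0.448, 0.300, 0.374 and 0.246). By that mean Hoxc9 was first for both marks, and Hoxa4 and Hoxa13 were among the 3 lowest for both. In single libraries H3K9me3 was highest at Hoxc9 in male Het, at Hoxd11 in male KO and at Hoxc12 in both female libraries.

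Over the 40 rows the marks had a Pearson r of 0.89 in male Het and 0.76 in female Het, a description of rows that share promoters and base composition. Other promoters under H3K27me3 had H3K9me3 of a similar size: 906 promoters with H3K27me3 at RPKM 1 or more in all 4 libraries had medians of 0.611, 0.723, 0.552 and 0.425, and the 25 Hox promoters above that minimum 0.784, 0.850, 0.572 and 0.495. In KO, 0 Hox promoters passed the 2-fold rule or limma in H3K9me3, although only 1 Hox row reached the minimum of RPKM 1 in both sexes (7.14% of 238 promoters were 2-fold lower, 0.42% higher, 0% were called by limma, and 0 Hox rows but 26.5% of all had an unadjusted p under 0.05). Without that minimum the median log2 ratio of KO to Het over the 40 rows was 0.043 in males and -0.33 in females, beside 0.056 and -0.16 for all promoters. Female libraries were below male ones in both genotypes at 33 of 40 rows, where 19.5% of all 22138 promoters were. Many of these promoters are low in the mark. Among the 218 promoters at RPKM 1 or more 101 were below in both, with 3 of the 4 Hox rows there. Of the 4 Hox rows at RPKM 1 or more, 0 passed the 2-fold rule (2.29% of 218 promoters were higher and 1.38% lower in females). limma called 0 of the 4, with 0 at an unadjusted p under 0.05, where 0.459% were called and 16.5% had such a p.

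In soma the H3K9me3 of Hox promoters lay closer to that of all promoters. Their median was 0.850 RPKM beside 0.721 for all promoters, the 66.5th percentile, where male Het PGCs were at the 96.5th. As deposited, 4 of 40 rows were 2-fold higher and 1 was 2-fold lower in soma than in male Het PGCs, where 73.7% and 0.985% of all 22138 promoters were. After each library was centred on its median over all promoters, 0 of 40 were higher and 34 of 40 lower in soma, where 5.67% and 21.7% of all promoters were. The single row 2-fold lower as deposited was Hoxb3, at 0.180 in soma against 0.813 in male Het PGCs, where its RNA was 8.40 in soma. The soma library is C57BL/6 and the Het library comes from the cross, whose strain the labels do not name. The all-promoter median differed by 1.66 on the log2 scale between these libraries, so a level and a scaling cannot be told apart.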

How the data were processed

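The deposited RNA and ChIP values are the authors' RPKM, per the file headers, with 1 value per Ensembl gene for RNA and 1 per window of 1 kb on each side of the transcription start for ChIP. Alignment to mm9 with BWA, with SAMtools for further handling, is per the submitters' processing notes; versions, read counter and scaling total were not given in the sources used here, and read depth is unknown. Between 15114 and 17371 genes were above 0 in a PGC RNA library.

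Log2(RPKM + 1) was tested in 12 Het and KO libraries (4 group means) with limma 3.58.1 (trend) in R 4.3.3 over the 13518 genes that reached RPKM 1 in 2 or more of them, two-sided, with Benjamini-Hochberg adjustment and a threshold of 0.05. On simulated data with 13245 genes the KO minus Het test over both sexes recovered 81% of log2 changes of 1 and 100% of changes of 2, with 10 false calls. The changed genes had a mean log2(RPKM + 1) above 2, and the noise was independent and normal. Several tested Hox genes lay lower, such as Hoxb2 and Hoxa13 (mean 2.25 and 0.88 RPKM). The shares recovered therefore do not give the power for such genes or for the tests within 1 sex. Marks were compared after a pseudocount of 0.1, by a 2-fold rule at a minimum of RPKM 1 and by limma over 4 libraries with a term for sex or genotype, so that error comes only from how the sexes or genotypes differ. Members, lists and the rule for named genes (those past a test, with the highest RNA, with the most extreme differences or marks) were chosen with earlier results of these data known. Promoter sequences are RefSeq's. DNA methylation, repeats and total H3 are not analysed here.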

Additional observations from a re-analysis of the deposited data

Results flagged for a closer look

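In 6 groups of 4 Het libraries, 1 library lay far from the other 3 in the RNA of a named Hox gene, by the gap to its nearest neighbour as a share of the range. Chance flags about 1 in 20 groups, and 2 groups were looked at for each named gene. Only 1 of the 6 concerns a gene that passed the RNA filter: Hoxc5 in female Het1 replicate 1 stood at 8.09 RPKM, against 3.34 to 4.02 in the other female Het libraries and 10.4 to 10.95 in female KO. The others are low values. Hoxc8 was at 0.63 in male Het2 replicate 2, Hoxc9 at 0.43 in male Het1 replicate 1, and Hoxc12 at 0.08 in male Het2 replicate 1. Hoxd12 was at 0.21 in male Het1 replicate 2 and at 0.02 in female Het1 replicate 1, with 0 in the other Het libraries of each sex.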

How the results depend on the processing

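The RNA count of Hox genes past the threshold stayed at 0 of 18 in males and for the difference of the KO effects under every alternative run. In females it was 0 in all but 1 alternative, ranging from 0 to 3 over the libraries left out in turn, with 3 (Hoxb6, Hoxb3 and Hoxb2) without male Het1 replicate 1. Over both sexes it ranged from 0 to 1 over the libraries left out and was 1 with Het2 alone as control (Hoxc4, adjusted p = 0.0224 by limma). Hoxc4 also passed without male Het1 replicate 2 (adjusted p = 0.0084 by limma), and Hoxa5 without female Het1 replicate 1. With the replicate number as a block the count was 1 (Hoxc4, adjusted p = 0.0434 by limma), and the calls over all genes were 186 in place of 141 over both sexes and 91 in place of 55 in females; same-numbered libraries of different groups had correlations of their deviations from -0.01 to 0.56, above 0.1 in 22 of 26 pairs, and differently numbered ones from -0.56 to -0.06, largely the mirror image that groups with 2 libraries impose. The labels give the number no meaning and not every pair was above 0.1, the criterion used for pairing, so the fit without the block is reported and whether the numbers pair the libraries is not settled. Female against male Het gave 0 with Het1 alone or Het2 alone, and from 1 to 2 with a library left out (Hoxb9 alone without male Het2 replicate 2). Between KO and Het over both sexes, Phf19 was also not called with a pseudocount of 0.1 (adjusted p = 0.0553 by limma).

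Differences near 0 changed sign. In males with Het2 alone as control Hoxb8 was -0.10 and Hoxb7 -0.051, and over the libraries left out in turn the lowest and highest values were -0.24 and 0.62 for Hoxb8, -0.17 and 0.54 for Hoxb7, -0.0085 and 0.58 for Hoxb6, -0.027 and 0.60 for Hoxb3 and -0.11 and 0.020 for Hoxb9. In females Hoxb9 was -0.12 with median centring, -0.21 with quantile normalisation, -0.061 with Het1 alone and -0.0019 with wild type joined to Het, an alternative chosen after seeing the data, and -0.022 and 0.074 over the libraries left out. Over both sexes Hoxd1 was 0.025 with a pseudocount of 0.1 and -0.31 and 0.024 over the libraries left out, and Hoxb9 was 0.015 with Het2 alone and -0.047 and 0.019 over the libraries left out. For these the cause was not tested.

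Soma against PGCs kept between 21 and 27 Hox rows higher in soma under its 3 alternatives. For H3K27me3 between the sexes the median log2 ratio was -0.26 at a pseudocount of 1 and -0.53 after median centring, and limma called 13 at that pseudocount (30.8% of all promoters tested), 3 with no minimum (6.94%), 33 after centring (82.1%) and 2 after quantile normalisation (4.34%). For H3K9me3 between the sexes the median was -0.22 with a pseudocount of 1 and limma called 2 of 4 after centring (23.9% of all), and soma against PGCs called 0 rows at a pseudocount of 1, 34 after centring (all lower, as 21.7% of all promoters were) and 0 under a 4-fold rule. Each mark has 1 library per sex and genotype, and RNA depth is unknown, so counting error cannot be given.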
